A study of Mus musculus with 4 samples.

Results

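A set of 50 genes that drive mitosis and chromosome segregation was followed in Fgf10+ cells sorted from a mouse salivary gland, the submandibular gland, at 2 ages. The genes were picked by symbol for their roles, and all 50 were found among the 53465 genes counted. They comprise 13 kinases, cyclins and checkpoint regulators, 9 kinesins, 6 spindle and cytokinesis genes, 10 centromere and kinetochore genes, 5 anaphase genes, 6 genes of chromosome structure and the transcription factor Foxm1. Mice of strain C57BL/6J and genotype Fgf10CreERT2:Rosa26Tomato fl/fl received tamoxifen, 0.1 mg per g of body weight, and Tomato marked cells in which the Fgf10 locus had driven the recombinase. The adult group was injected at P57/58 and killed at P60 (2 libraries), and the pup group was injected at P4/5 and killed at P7 (2 libraries). Both ages therefore carried the same alleles and the same drug, and each age was a single time point. No label says whether the 2 libraries of an age are different animals, and the p-values below therefore reflect the spread of these samples alone, which may be technical.

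Entry into mitosis is driven by cyclin-dependent kinase 1 with A- and B-type cyclins, and Aurora and Polo kinases then direct spindle assembly. Kinesin motors build the spindle, kinetochores attach chromosomes to it, and a checkpoint holds back anaphase until all are attached. The anaphase-promoting complex then marks cyclin B and securin for destruction, which frees separase to cut cohesin. Most of these genes are transcribed late in the cell cycle and are nearly silent in resting cells, so their summed RNA is widely read as a sign of dividing cells. In bulk RNA from sorted cells, fewer dividing cells and less RNA per cell cannot be told apart.

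Gene counts totalled 13791730 and 16585518 in adults, against 7289792 and 21490686 in pups, where values here and below are given for replicate 1 and then replicate 2. Pup replicate 1 stood apart. Reads that the counting step assigned to no annotated feature made up 76.7% of its tallied reads, against 9.70% to 10.6% in the other libraries. Of 1134 olfactory receptor genes, which serve the sense of smell, 96.5% were counted there, against 1.59% to 7.67% in the others. Their rate per kb of exon served as a background estimate for every gene and amounted to 24.7% of the gene counts of pup replicate 1. The sorted cells also differed in makeup. Summed ionocyte markers, genes of ion-transporting epithelial cells, stood at 5977 and 4032 CPM in adults, against 144 and 185 CPM in pups. Summed mesenchyme markers stood at 1226 and 21821 CPM in adults, against 25432 and 58150 CPM in pups. Summed endothelial markers stood at 0.0744 and 765 CPM in adults, against 109 and 6.07 CPM in pups, and 5 of the 6 endothelial markers were at 0 in adult replicate 1. Myoepithelial and smooth muscle markers summed to 4435 and 2088 CPM in adults, against 3875 and 11797 CPM in pups. Epithelial markers summed to 7847 and 11767 CPM in adults, against 2660 and 6267 CPM in pups. Of these 7 markers, 5 stood higher in both adults than in both pups. Krt14 and Krt5 went the other way, with log2 fold changes, adult over pup, of -2.05 and -0.58. Leukocyte markers summed to at most 92.5 CPM, Schwann cell and neuron markers to at most 178 CPM, erythroid markers to at most 10.6 CPM and germ line markers to at most 20.2 CPM in any library. These marker sums include the background of pup replicate 1. With it subtracted, that library held 63.1 CPM of endothelial, 46.1 CPM of leukocyte and 3.05 CPM of germ line markers. The part of cell makeup in the values below was not tested. Fgf10 itself, the gene behind the sort, stood at 190 and 39.2 CPM in adults, against 26.5 and 23.4 CPM in pups.

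Late cell cycle genes are commonly bound at a cell cycle genes homology region (CHR), read by the MuvB complexes that include B-Myb or FoxM1, and at CCAAT boxes read by NF-Y. The promoter is shown for the gene of highest mean pup level per length in each of 5 role groups among those with a RefSeq window (Top2a stands in for Smc4, which has none), so that these letters can be seen beside the counts. Sequences are from RefSeq on GRCm38.p6, read 5′ to 3′ on the minus strand, which is the coding strand of all 5 genes. Each runs from 170 bases before the annotated start to 30 bases after it. Capitals mark TTTGAA or TTTAAA (CHR) and CCAAT on either strand, so TTCAAA and ATTGG are the same motifs read from the other strand. Ccnb2 (cyclin B2) lies at chr9:70421525-70421724, Kif18b (a kinesin that trims microtubule ends) at chr11:102925095-102925294, Spc25 (a kinetochore subunit) at chr2:69206184-69206383, Top2a (topoisomerase II alpha, which untangles DNA) at chr11:99024160-99024359 and Pttg1 (securin) at chr11:43425952-43426151.
Ccnb2: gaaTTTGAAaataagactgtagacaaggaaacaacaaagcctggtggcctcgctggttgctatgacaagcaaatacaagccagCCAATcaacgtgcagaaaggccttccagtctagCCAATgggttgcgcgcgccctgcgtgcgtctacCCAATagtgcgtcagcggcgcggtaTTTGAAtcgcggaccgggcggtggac
Kif18b: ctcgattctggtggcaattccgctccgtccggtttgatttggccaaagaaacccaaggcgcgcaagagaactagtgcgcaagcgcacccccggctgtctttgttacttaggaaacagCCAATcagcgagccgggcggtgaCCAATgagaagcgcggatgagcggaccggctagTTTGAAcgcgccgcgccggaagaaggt
Spc25: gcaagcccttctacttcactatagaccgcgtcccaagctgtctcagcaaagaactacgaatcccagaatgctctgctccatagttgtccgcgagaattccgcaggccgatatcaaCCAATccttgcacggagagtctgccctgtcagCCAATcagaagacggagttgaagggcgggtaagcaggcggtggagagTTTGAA
Top2a: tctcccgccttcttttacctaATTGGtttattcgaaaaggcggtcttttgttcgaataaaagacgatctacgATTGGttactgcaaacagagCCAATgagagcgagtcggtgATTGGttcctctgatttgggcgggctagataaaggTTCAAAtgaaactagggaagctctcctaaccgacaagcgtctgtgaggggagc
Pttg1: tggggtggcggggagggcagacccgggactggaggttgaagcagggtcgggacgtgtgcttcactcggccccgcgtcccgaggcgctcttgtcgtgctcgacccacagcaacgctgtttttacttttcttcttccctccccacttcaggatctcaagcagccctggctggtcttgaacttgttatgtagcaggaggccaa

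In the printed stretches, Ccnb2 held 3 CCAAT boxes and 2 CHR matches, Kif18b and Spc25 each held 2 and 1, and Top2a held 4 and 1. The Pttg1 stretch held no match, which says only that these letters are not in this window. RefSeq's start for Pttg1 lies downstream of 4 of the 6 transcript starts that GENCODE gives for the gene, by 221 to 270 bases, so the printed stretch holds none of the region before those starts.

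RefSeq windows of 250 bases before to 50 after the start were given for 43 of the 50 genes, as 47 windows. TTTGAA occurred in 70.2% of these windows, against 17.9% of all 32851 windows of the genome's genes. Within 50 bases of the start on either side, TTTGAA was present in 66.0% of the windows of mitotic genes, against 4.94% of all windows. There, TTTAAA was in 12.8% of the windows of mitotic genes, against 3.64% of all windows. Over the whole window, TTTAAA was in 19.1% of the windows of mitotic genes, against 13.2% of all windows, and CCAAT was in 74.5%, against 37.4%. A CHR match and a CCAAT box stood together anywhere in the window in 63.8% of mitotic genes' windows, against 10.7% of all windows. A match is a description of the sequence and does not show binding. With 1 window a gene, 31 of the 41 TTTGAA matches began within 50 bases of the start, while the CCAAT boxes lay further upstream, with a median first base at -69.5. No window was given for Tpx2, Kif20a, Pbk, Ccna2, Aurkb, Smc4 and Foxm1.

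**Figure D1:**
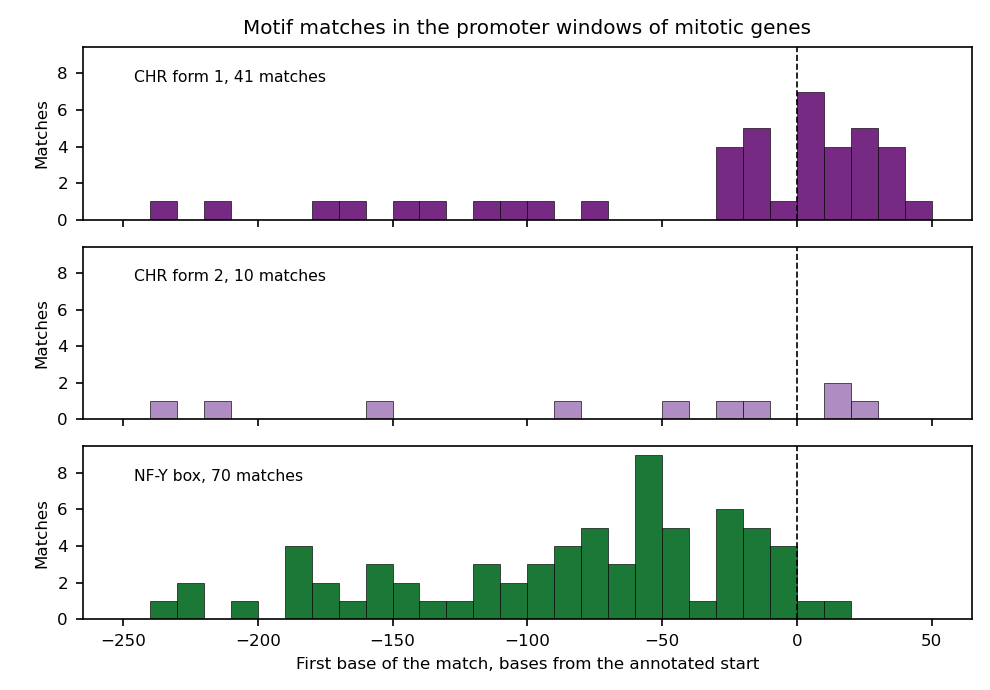
Positions of motif matches in the promoter windows of 43 mitotic genes, with the first base of the match in bases from the annotated start on the horizontal axis, the number of matches on the vertical axis and a dashed line at the start. CHR form 1 (TTTGAA, 41 matches) gathers around the start. CHR form 2 (TTTAAA, 10 matches) has 6 matches within 50 bases of the start and the others further upstream. The NF-Y box (CCAAT, 70 matches) is spread over the bases before the start.

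Most of the mitotic genes had few or no counts in the adult cells, and every one was counted in both pup libraries. Together they made up 120 and 134 CPM, unscaled, in adults, against 1332 and 1268 CPM in pups. With the expected background subtracted from both its mitotic counts and its library total, pup replicate 1 held 1028 CPM. Scaled by TMM as in the main fit, with the library total kept, its background-subtracted sum was 624 CPM, against 1390 CPM in pup replicate 2. On that scale the adults held 123 and 155 CPM. Of the 50 genes, 24 had 0 counts in adult replicate 1, 15 had 0 in adult replicate 2 and 11 had 0 in both. In 49 of 50 genes both adult libraries stood below both pup libraries, against 27.1% of the 16320 genes tested. Pttg1 was the exception. Of the counts over the 50 genes in pup replicate 1, 39.1% were expected from background. After that share was subtracted, 42 of 50 genes remained lower in both adults than in both pups, against 18.1% of all genes tested. The genes that no longer separated were Ccnb1, Aurka, Plk1, Kif4, Anln, Ube2c and Cdca3, while Pttg1 overlapped before and after. Against pup replicate 2 alone, 49 of 50 were lower in both adults, against 40.1% of all genes.

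**Figure D2:**
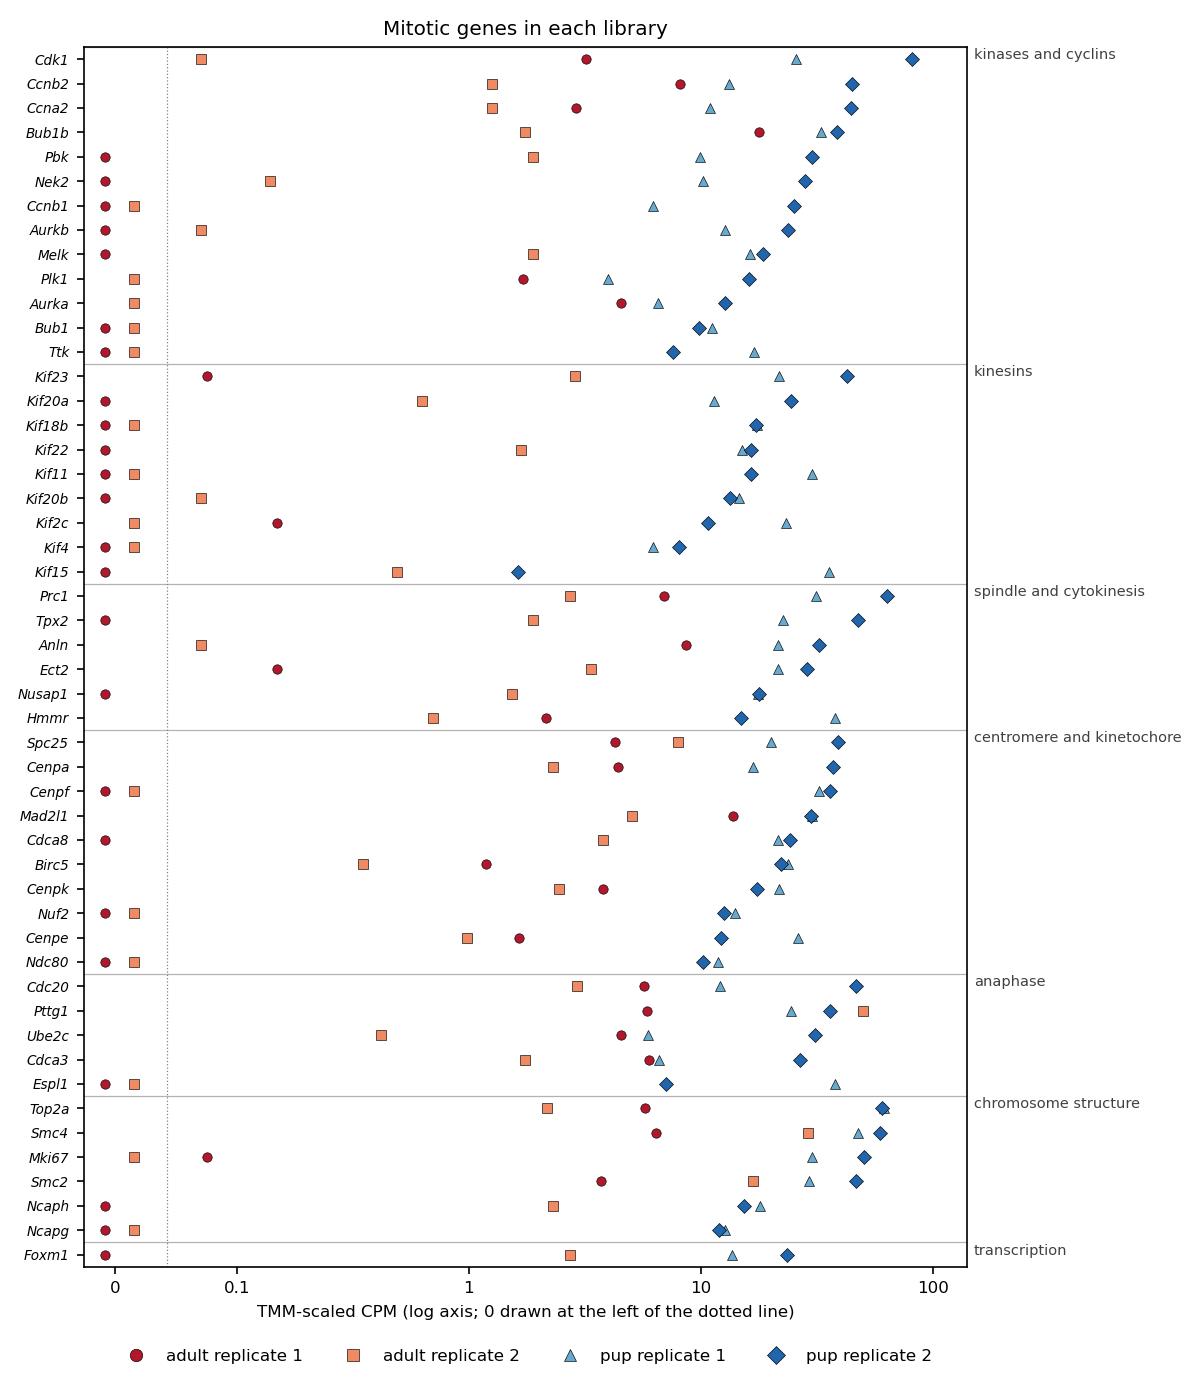
TMM-scaled CPM of each of the 50 genes in the 4 libraries on a log axis, grouped by role, with red circles and orange squares for adult replicates 1 and 2 and light triangles and dark diamonds for pup replicates 1 and 2. Values of 0 are drawn left of the dotted line, and in 49 rows both adult points lie left of both pup points, the exception being Pttg1.

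The log2 fold change, adult over pup, was below 0 for all 50 genes, against 57.1% of all tested genes. Its median over the 50 was -4.20, against -0.24 over all tested genes, and it stayed at -4.20 with the 11 genes at 0 in both adults set to their lower bounds. By edgeR's quasi-likelihood test with Benjamini-Hochberg adjustment, 0 of 50 passed an adjusted p of 0.05, against 0% of all genes in either direction, and the lowest adjusted p among the 50 was 0.162. At an unadjusted p under 0.05, 32 of the 50 were lower in adults, against 8.49% of all genes, and 0 were higher, against 5.99%. DESeq2, a second count test, called 29 of 50 lower in adults at an adjusted p under 0.05, against 5.61% of all genes, and 0 higher, against 3.97%. Without pup replicate 1, DESeq2 called 20 of 50 lower, against 2.66% of all genes. With the background subtracted from that library, it called 28 of the 48 genes still tested, against 5.86%. DESeq2 was not run without pup replicate 2. Without adult replicate 1 it called 32 of 50, against 3.64%, and without adult replicate 2 it called 34 of 50, against 11.5%. The same 2 omissions gave 13 calls by edgeR, against 0.987% of all genes, and 26 calls, against 4.49%, where the lone adult library is assumed to vary like the pups. Without either pup library edgeR called 0 of 50 over the same genes. Of the 50 genes, 18 lay under the filter level of 0.658 CPM in both adults and were tested through their pup counts. All 18 were among the 29 called by DESeq2 in the full fit, so most of those calls come from genes tested through the pups. For any single value, an exact two-sided permutation test of 2 libraries against 2 cannot go below p = 0.333.

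**Figure D3:**
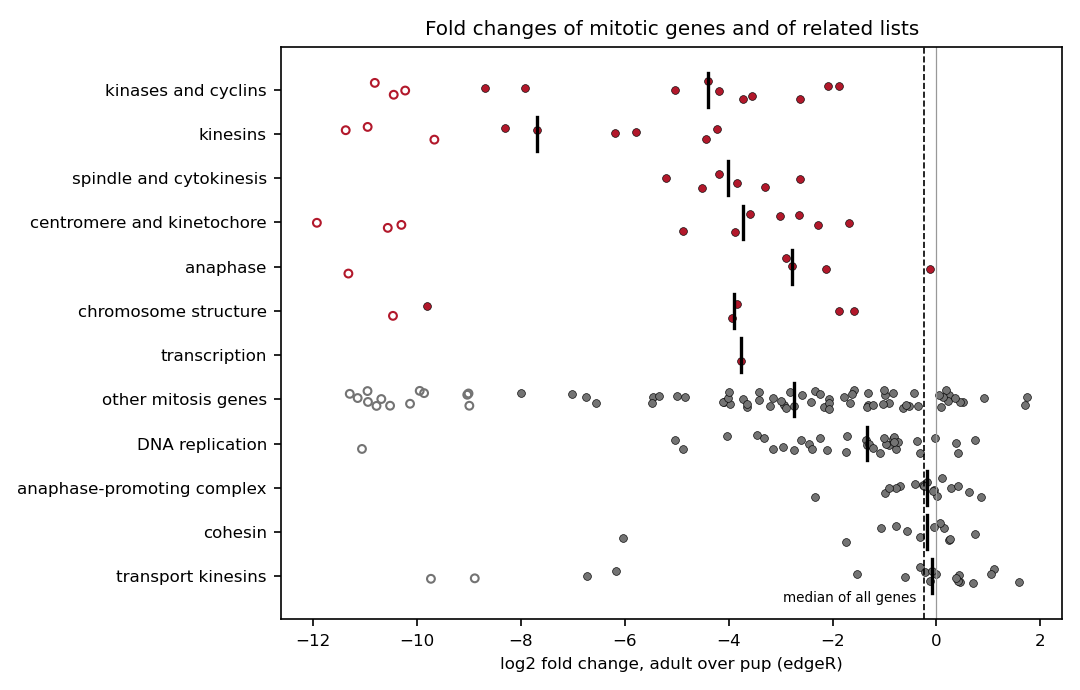
Log2 fold changes, adult over pup, from edgeR for the mitotic genes by role (red) and for related gene lists (grey), with 1 point a gene, a black bar at each list's median and open circles for genes with 0 counts in both adults, whose position is no bound. The medians of the 6 role groups with more than 1 gene lie between -7.69 and -2.77, whereas the median of all genes (dashed line) is -0.24.

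Counts below are as deposited and not scaled for depth, and gene positions are those of GENCODE on GRCm38. For the role groups below, the shares over all genes were 5.61% called lower by DESeq2 and 27.1% with both adults below both pups. The kinases, cyclins and checkpoint regulators had a median log2 fold change of -4.39. All 13 were lower in both adults than in both pups, and DESeq2 called 7 of 13 lower (Cdk1, Ccna2, Ccnb1, Aurkb, Nek2, Ttk and Bub1). Summed over the group, the level per length was 30.01 and 6.18 TPM in adults, against 181 and 284 TPM in pups. Cdk1, the kinase at the centre of mitotic entry, had 43 and 1 counts in adults, against 245 and 1583 counts in pups, of which 69.0 of the 245 were expected from background. Ccnb2 (ENSMUSG00000032218, chr9:70407692-70421547), which encodes cyclin B2 and whose promoter is printed above, had 109 and 18 counts in adults, against 125 and 874 in pups. Scaled for depth, these were 8.11 and 1.26 CPM in adults, against 13.1 and 44.6 CPM in pups. Both adults lay below both pups, and adult replicate 1 was nearer to pup replicate 1 than the pups were to each other. The log2 fold change of Ccnb2 was -2.62 ± 1.17 (SE), with an edgeR adjusted p of 0.390.

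Ccnb1, which encodes the other major mitotic B-type cyclin, differed from Ccnb2 in that it had 0 counts in both adults, against 59 and 495 counts in pups. The 59 counts in pup replicate 1 equalled its expected background of 59.0. Ccnb1 was at least 157-fold lower in adults. This bound, like those that follow, sets 3 counts over both adult libraries against the counts of pup replicate 2, and takes every count of pup replicate 1 as background. Processed pseudogenes of Ccnb1 match it at up to 99.22% over 1287 bases, so its counts are uncertain. Pbk (ENSMUSG00000022033, chr14:65805837-65817822), a mitotic kinase, had 0 and 27 counts in adults, against 94 and 590 counts in pups. That gave 0 and 1.89 CPM in adults, against 9.88 and 30.1 CPM in pups, with no overlap and with all adult counts in replicate 2. Pbk had a log2 fold change of -4.39 ± 2.01 (SE), with an edgeR adjusted p of 0.405.

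The Aurora kinases were unlike in the adults. Aurkb, the catalytic subunit of the chromosomal passenger complex, had 0 and 1 counts in adults, against 121 and 464 counts in pups. The ratio of pup to adult counts per depth was 442 for Aurkb, with a 95% interval of 79.0 to 17499 that covers counting error only, and with pup replicate 1 treated as for the bounds. Aurka, by contrast, had adult counts in 1 library. This kinase, which acts at the spindle poles, had 61 and 0 counts in adults, against 62 and 249 counts in pups, and 35.4 of the 62 were expected from background. Plk1, the Polo kinase, showed the same split with 23 and 0 counts in adults, against 38 and 316 counts in pups. For both, the counts lay in adult replicate 1 and the replicate 2 library had none. Nek2, a centrosome kinase, had 0 and 2 counts in adults, against 97 and 550 counts in pups. Melk, a kinase of dividing cells, had 0 and 27 counts in adults, against 154 and 364 counts in pups. In these 2 kinases adult replicate 1 was the library at 0, and part of Nek2 overlaps the antisense gene Gm38037.

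The checkpoint kinases Ttk and Bub1 both had 0 counts in both adults. Ttk, which starts checkpoint signalling at the kinetochore, had 161 and 148 counts in pups and was at least 47.0-fold lower in adults. Bub1 had 106 and 193 counts in pups and was at least 61.3-fold lower in adults. Their checkpoint partner did not share this absence. Bub1b, which encodes the checkpoint protein BubR1, was the largest contributor to adult replicate 1, with 239 and 25 counts in adults, against 313 and 753 counts in pups. It made up 14.4% of the mitotic counts of that library. Ccna2, which encodes cyclin A2, had 39 and 18 counts in adults, against 104 and 868 counts in pups. Of its exon sequence, 12.5% is shared with the neighbouring gene Exosc9, and reads there cannot be assigned to either gene without strand.

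The kinesins had the lowest median of the groups, a log2 fold change of -7.69. DESeq2 called 8 of 9 lower in adults, all but Kif22, and all 9 were lower in both adults than in both pups. Of the called kinesins, only Kif23 reached the filter level in an adult library. The 9 genes together had 3 and 82 counts in adults, against 1665 and 2960 counts in pups, of which 784 of the 1665 were expected from background. Their summed level was 0.0976 and 1.70 TPM in adults, against 98.6 and 62.4 TPM in pups. Kif18b (ENSMUSG00000051378, chr11:102905529-102925124) had 0 counts in both adults, against 166 and 337 counts in pups, which scaled to 17.4 and 17.2 CPM in pups. It was at least 107-fold lower in adults, with an edgeR adjusted p of 0.202 and a DESeq2 adjusted p of 4.52e-06. Kif2c (ENSMUSG00000028678, chr4:117159639-117182639), which depolymerises microtubules at the centromere, had 2 and 0 counts in adults, against 221 and 211 counts in pups. The ratio of pup to adult was 101 for Kif2c, with a 95% counting interval of 27.5 to 835. Kif2c had a log2 fold change of -7.69 ± 1.94 (SE), with an edgeR adjusted p of 0.244.

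Kif11, the motor that pushes spindle poles apart, had 0 counts in both adults, against 285 and 323 counts in pups, and was at least 103-fold lower in adults. Kif4, a chromosome-bound motor, also had 0 counts in both adults, against 59 and 157 counts in pups. Kif4 was the one gene whose count in pup replicate 1 was under its expected background, 77.1. Its bound, at least 49.9-fold lower in adults, rests on pup replicate 2, and 15.1% of its exon sequence is shared with Pdzd11. Kif15, which works beside Kif11, had 0 and 7 counts in adults, against 338 and 32 counts in pups and an expected background of 154 in pup replicate 1. The 2 pup libraries thus differed more for Kif15 than for any other kinesin. Kif20a, a cytokinesis motor, had 0 and 9 counts in adults, against 108 and 479 counts in pups, and shares 29.3% of its exon sequence with Cdc23. Kif20b, also of cytokinesis, had 0 and 1 counts in adults, against 139 and 261 counts in pups. Kif23, a subunit of centralspindlin, had 1 and 41 counts in adults, against 206 and 837 counts in pups. Kif22, which moves chromosome arms, had 0 and 24 counts in adults, against 143 and 323 counts in pups. Thus the kinesin counts of the adults lay almost wholly in replicate 2.

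**Figure D4:**
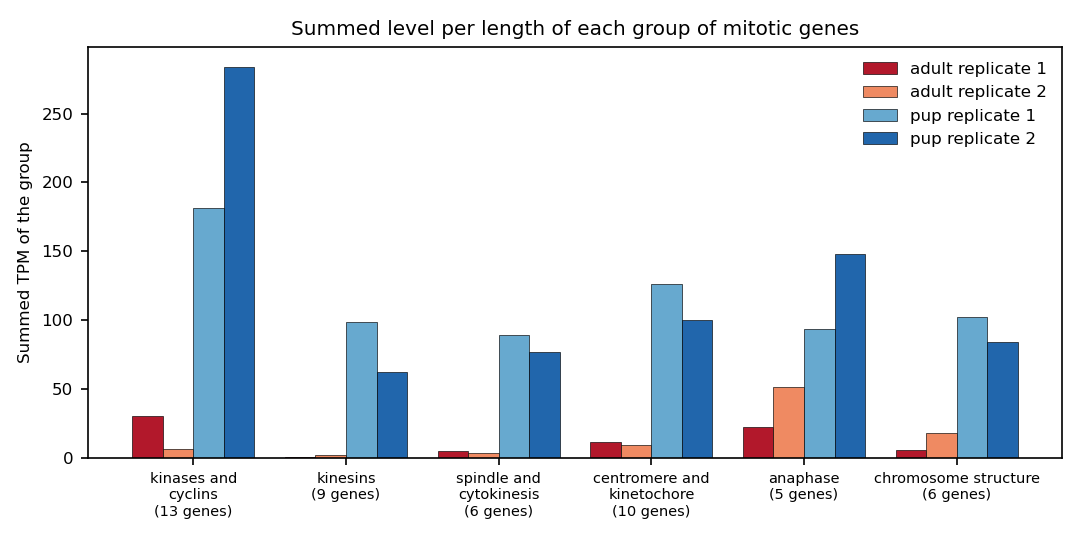
Summed TPM, a level per exon length, of 6 role groups in each library (Foxm1 alone is not drawn), with adult replicates 1 and 2 left of pup replicates 1 and 2 in each group; background is not subtracted from pup replicate 1. Every adult bar lies below both pup bars of its group, from kinesins (0.0976 and 1.70 TPM in adults) to anaphase genes (21.9 and 51.2 TPM in adults).

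The 6 spindle and cytokinesis genes had a median log2 fold change of -4.01, and DESeq2 called 3 lower (Tpx2, Prc1 and Hmmr). Tpx2 (ENSMUSG00000027469, chr2:152847964-152895321), which nucleates spindle microtubules and activates Aurora A, had 0 and 27 counts in adults, against 215 and 930 counts in pups. Scaled, these were 0 and 1.89 CPM in adults, against 22.6 and 47.5 CPM in pups, with all adult counts again in replicate 2. Tpx2 had a log2 fold change of -5.20 ± 1.73 (SE), with an edgeR adjusted p of 0.285 and a DESeq2 adjusted p of 0.0148. Prc1 (ENSMUSG00000038943, chr7:80294450-80316259), which bundles the microtubules of the central spindle, had 93 and 39 counts in adults, against 299 and 1234 counts in pups. Scaled, these were 6.92 and 2.73 CPM in adults, against 31.4 and 63.0 CPM in pups, so each library of one age was well separated from the other age. Prc1 had a log2 fold change of -3.29 ± 0.77 (SE), with an edgeR adjusted p of 0.232 and a DESeq2 adjusted p of 0.00305, and 11.1% of its exon sequence is shared with Rccd1. The remaining genes of this group were also lower in both adults. Hmmr, a spindle pole protein, had 29 and 10 counts in adults, against 359 and 290 counts in pups. Anln, which organises the cleavage furrow, had 116 and 1 counts in adults, against 204 and 631 counts in pups, with 127 of the 204 expected from background. Ect2, the activator of RhoA at the furrow, had 2 and 48 counts in adults, against 205 and 562 counts in pups. Nusap1, a microtubule-bundling protein, had 0 and 22 counts in adults, against 168 and 349 counts in pups. Anln counts thus lay in adult replicate 1, and Ect2 and Nusap1 counts in adult replicate 2.

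The 10 centromere and kinetochore genes had a median log2 fold change of -3.73. DESeq2 called 7 of 10 lower (Cenpa, Cenpe, Cenpf, Cenpk, Ndc80, Nuf2 and Birc5), and all 10 were lower in both adults than in both pups. The subunits of the NDC80 complex, which binds microtubules, were unlike one another in adults. Ndc80 had 0 counts in both adults, against 113 and 200 counts in pups, and was at least 63.5-fold lower in adults. Nuf2 had 0 counts in both adults, against 133 and 245 counts in pups, and was at least 77.8-fold lower in adults. In pup replicate 1 the expected background was 90.8 counts for Ndc80 and 88.7 counts for Nuf2. Spc25 (ENSMUSG00000005233, chr2:69193895-69206194), which sits at the other end of the complex, had 57 and 114 counts in adults, against 191 and 763 counts in pups. Scaled, these were 4.24 and 7.97 CPM in adults, against 20.1 and 38.9 CPM in pups, with no overlap. Spc25 had a log2 fold change of -2.27 ± 0.80 (SE), with an edgeR adjusted p of 0.285. Spc24, Spc25's partner and no member of the 50, had 16 and 14 counts in adults, against 88 and 501 counts in pups. Per length, Spc25 averaged 3.83 TPM in adults, against 24.6 TPM in pups.

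The chromosomal passenger complex, which corrects attachment errors, had subunits with unequal adult counts. Birc5 (ENSMUSG00000017716, chr11:117849251-117855743), the survivin subunit, had 16 and 5 counts in adults, against 225 and 433 counts in pups. These scaled to 1.19 and 0.350 CPM in adults, against 23.6 and 22.1 CPM in pups, so the ages were far apart. With its expected background of 47.6 counts subtracted, pup replicate 1 stood at 18.6 CPM. Birc5 had a log2 fold change of -4.88 ± 1.19 (SE), with an edgeR adjusted p of 0.241 and a DESeq2 adjusted p of 0.000208. Cdca8, the borealin subunit, had 0 and 54 counts in adults, against 205 and 476 counts in pups. Incenp, the scaffold of the complex and no member of the 50, had 67 and 75 counts in adults, against 149 and 530 counts in pups. Its catalytic partner Aurkb was described above, with 1 count in the adults in all.

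Cenpf, a large coiled-coil protein of the outer kinetochore, had 0 counts in both adults, against 306 and 706 counts in pups. It was at least 224-fold lower in adults, the furthest bound among the 11 genes at 0 in both adults. Other genes of the group kept some adult counts. Cenpa, the histone H3 variant that marks centromeres, had 59 and 33 counts in adults, against 159 and 727 counts in pups. Cenpe, a kinetochore motor, had 22 and 14 counts in adults, against 250 and 238 counts in pups. Cenpk, of the constitutive centromere network, had 51 and 35 counts in adults, against 206 and 340 counts in pups. Mad2l1, the checkpoint protein Mad2, kept one of the higher adult counts, 184 and 72, against 286 and 585 counts in pups. Both adults still lay below both pups for each of these 5 genes.

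The anaphase genes had a median log2 fold change of -2.77 and included Pttg1, whose ages overlapped. Pttg1 (ENSMUSG00000020415, chr11:43420250-43426251), the securin that holds separase inactive, had 79 and 714 counts in adults, against 233 and 706 counts in pups. Scaled, these were 5.88 and 49.9 CPM in adults, against 24.5 and 36.02 CPM in pups. Adult replicate 2 was the highest of the 4 libraries and adult replicate 1 the lowest. Pttg1 had a log2 fold change of -0.12 ± 0.96 (SE), with an edgeR adjusted p of 0.974, and its sign turned to 0.68 without adult replicate 1 and 0.19 without pup replicate 2 over the same genes. Pttg1 made up 32.2% of all mitotic counts of adult replicate 2. The adult libraries also differed in their summed markers of several cell types, given above, and the part of cell makeup was not tested. Per length, Pttg1 had the highest adult mean of the 50 genes, 26.7 TPM, against 41.3 TPM in pups. That mean joins 6.59 and 46.8 TPM, and in adult replicate 1 Ccnb2 was higher, at 11.9 TPM. Espl1, the separase that securin inhibits, had 0 counts in both adults, against 359 and 139 counts in pups, and was at least 44.1-fold lower in adults.

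Cdc20 (ENSMUSG00000006398, chr4:118432901-118437352), the activator of the anaphase-promoting complex, had 76 and 42 counts in adults, against 115 and 915 counts in pups. Scaled, these were 5.66 and 2.94 CPM in adults, against 12.1 and 46.7 CPM in pups. Both adults were lower, and the pups differed more from each other than the adults did. Cdc20 had a log2 fold change of -2.77 ± 0.98 (SE), with an edgeR adjusted p of 0.285. Ube2c, the ubiquitin-conjugating enzyme of that complex, had 61 and 6 counts in adults, against 56 and 607 counts in pups, with 36.4 of the 56 expected from background, and shares 22.8% of its exon sequence with Tnnc2. Cdca3, a regulator of mitotic entry, had 80 and 25 counts in adults, against 63 and 525 counts in pups. For Ube2c and Cdca3, adult replicate 1 and pup replicate 1 were close once scaled, and the background-subtracted values overlapped.

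The genes of chromosome structure had a median log2 fold change of -3.89, and DESeq2 called 3 of 6 lower (Mki67, Top2a and Ncapg). Top2a (ENSMUSG00000020914, chr11:98992943-99024189), whose promoter is printed above, had 77 and 31 counts in adults, against 582 and 1184 counts in pups. Scaled, these were 5.73 and 2.17 CPM in adults, against 61.2 and 60.4 CPM in pups. Background was expected to give 126 of the 582 counts, and without it pup replicate 1 stood at 47.9 CPM. Top2a had a log2 fold change of -3.94 ± 0.70 (SE), with an edgeR adjusted p of 0.169 and a DESeq2 adjusted p of 2.65e-05. Mki67, whose protein coats mitotic chromosomes and is the usual marker of dividing cells, had 1 and 0 counts in adults, against 286 and 991 counts in pups. The ratio of pup to adult was 944 for Mki67, with a 95% counting interval of 169 to 37331. Pseudogenes that match Ndc80, Mad2l1, Pbk and Mki67 at 95.05% to 98.61% over part of their length add some uncertainty to those counts.

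Condensin I, the ring that compacts mitotic chromosomes, had adult counts for both SMC arms and Ncapd2, but few or none for Ncapg and Ncaph. Smc4 (ENSMUSG00000034349, chr3:69004738-69034623) had 86 and 414 counts in adults, against 451 and 1161 counts in pups. Scaled, these were 6.40 and 28.9 CPM in adults, against 47.4 and 59.2 CPM in pups, with no overlap. Smc4 had a log2 fold change of -1.59 ± 0.78 (SE), with an edgeR adjusted p of 0.431. Smc2, its partner, had 50 and 240 counts in adults, against 279 and 909 counts in pups. Ncapg had 0 counts in both adults, against 121 and 235 counts in pups, and was at least 74.6-fold lower in adults, while 13.4% of its exon sequence is shared with Lcorl. Ncaph, the clasp of the ring, had 0 and 33 counts in adults, against 170 and 300 counts in pups. Smc2 and Smc4 are also the arms of condensin II, whose subunit Ncaph2 had 1554 and 1618 counts in adults, against 313 and 1727 counts in pups. Ncapd2, the remaining condensin I subunit, had 344 and 388 counts in adults, against 188 and 938 counts in pups. Their log2 fold changes were 0.92 ± 0.60 (SE) for Ncaph2 and -0.36 ± 0.61 (SE) for Ncapd2, and the edgeR adjusted p was 0.570 for Ncaph2 and 0.856 for Ncapd2.

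Foxm1 (ENSMUSG00000001517, chr6:128362967-128376146), the transcription factor that switches on many late cell cycle genes, had 0 and 39 counts in adults, against 129 and 460 counts in pups. Scaled, these were 0 and 2.73 CPM in adults, against 13.6 and 23.5 CPM in pups, so the ages did not overlap and all adult counts lay in replicate 2. Foxm1 had a log2 fold change of -3.75 ± 2.01 (SE), with an edgeR adjusted p of 0.477, and its expected background in pup replicate 1 was 80.5 counts. Mybl2, which encodes B-Myb and is no member of the 50, had 0 and 5 counts in adults, against 74 and 169 counts in pups.

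Pup replicate 1 was also set against its expected background gene by gene. Over the 1134 olfactory receptor genes themselves, the ratio of observed to expected counts had a median of 0.778 and a 95th percentile of 2.83, so the expectation for a single gene is imprecise. Of the 50 mitotic genes, 19 exceeded that percentile, 31 exceeded 2 times their expectation, and Kif4 was under its expectation. In their role groups Pttg1 at 8.33 times, Smc4 at 6.19 times and Ccnb2 at 5.84 times the expectation were the furthest above it. Birc5 and Hmmr, both at 4.73 times, and Kif2c, at 3.62 times, led the remaining groups of more than 1 gene.

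**Figure D5:**
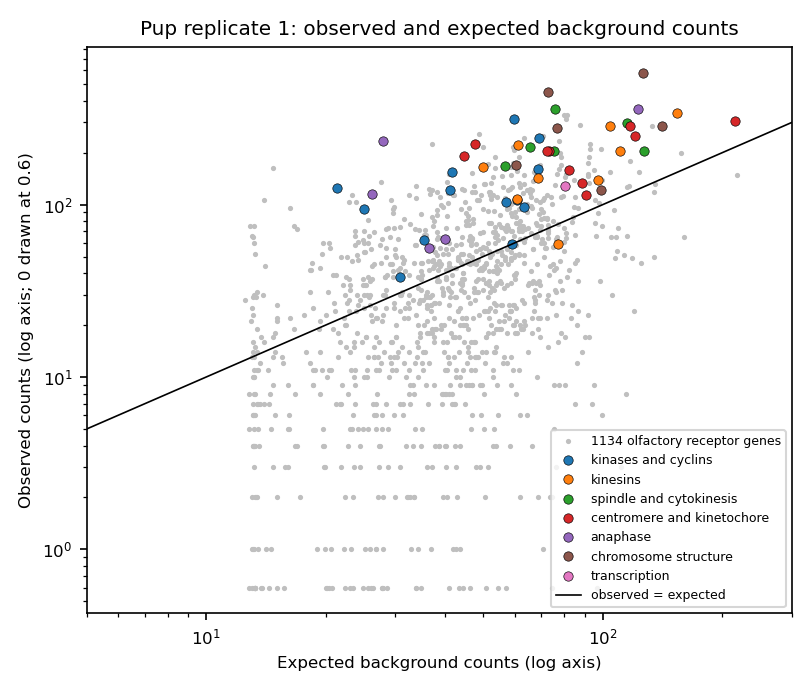
Observed against expected background counts in pup replicate 1 on log axes, with 1 grey point for each of 1134 olfactory receptor genes, coloured points for the 50 mitotic genes by role, and a line where both are equal. All mitotic genes but Kif4 and Ccnb1 lie above the line, and 19 of 50 lie above 2.83 times their expectation.

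Genes of mitosis outside the 50 were counted for comparison, in lists chosen by function. Of 79 such genes, 77 were tested, and 65 of these had a log2 fold change below 0, against 57.1% of all genes. The median was -2.74. DESeq2 called 26 of the 77 lower in adults, against 5.61% of all genes, and 0 higher, against 3.97%. Among the further kinetochore genes, DESeq2 called 14 of 30 lower, and Knl1, the platform on which Bub1 assembles, had 0 counts in both adults, against 233 and 296 counts in pups. The most abundant members of these lists varied. Bub3, the checkpoint partner of Bub1, had 708 and 1254 counts in adults, against 362 and 1579 counts in pups. Cks1b, a Cdk1 cofactor, had 77 and 277 counts in adults, against 392 and 2482 counts in pups, and was called lower by DESeq2 with an adjusted p of 0.0239. Zwint, a kinetochore protein, had 871 and 1430 counts in adults, against 752 and 1478 counts in pups, and Hjurp, the chaperone that loads Cenpa, had 995 and 734 counts in adults, against 1961 and 979 counts in pups. Numa1, which anchors the spindle poles and sits in the nucleus of resting cells, had 1620 and 1545 counts in adults, against 919 and 1929 counts in pups.

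Most genes of the machinery that the anaphase genes act on were counted in every library. The anaphase-promoting complex and its partners had a median log2 fold change of -0.18 over 17 genes. DESeq2 called 0 of them, against 5.61% of all genes lower and 3.97% higher. Fbxo5 was the lowest of the list at -2.33, with 3 and 26 counts in adults, against 41 and 118 counts in pups. The subunit Anapc5 of the complex had 2814 and 3198 counts in adults, against 2337 and 6433 counts in pups. The subunit Anapc2 had 2497 and 2017 counts in adults, against 654 and 2796 counts in pups. Cohesin and its regulators had a median of -0.19 over 12 genes. Esco2, a replication-linked acetyltransferase, was the 1 gene called lower by DESeq2, against 5.61% of all genes. Esco2 had 0 and 8 counts in adults, against 282 and 163 counts in pups. The cohesin subunit Smc1a had 1454 and 1876 counts in adults, against 800 and 2595 counts in pups, and the release factor Wapl had 1513 and 1109 counts in adults, against 683 and 2147 counts in pups. Transport kinesins, which carry cargo along microtubules rather than building the spindle, had a median of -0.09 over 19 genes. DESeq2 called 4 of them lower (Kif1a, Kif5a, Kif5c and Kif17), against 5.61% of all genes. In pup replicate 1, Kif1a had 118 counts with 130 expected from background, and Kif17 had 62 with 64.1 expected. Kif5a had 158 there with 97.8 expected, and Kif5c had 233 with 99.9 expected. In pup replicate 2 the counts were 49 for Kif1a, 35 for Kif17, 15 for Kif5a and 61 for Kif5c. The most abundant transport kinesin, Kif5b, had 4365 and 4852 counts in adults, against 1031 and 3956 counts in pups. Kif1b, the next most abundant, had 1334 and 1854 counts in adults, against 1163 and 2131 counts in pups, with a log2 fold change of -0.01 ± 0.48 (SE). DNA replication genes had a median of -1.33 over 35 genes, and DESeq2 called 6 lower, against 5.61% of all genes. Pcna, the sliding clamp, had 536 and 522 counts in adults, against 421 and 1688 counts in pups, and Rrm1, a ribonucleotide reductase subunit, had 595 and 624 counts in adults, against 421 and 1997 counts in pups. Whether these lists differ from the 50 mitotic genes was not tested.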

How the data were processed

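RNA of sorted cells was made into libraries from 1 ng with SMART-Seq HT, a kit that does not mark strand, per the labels' protocols. The deposited values are whole-number read counts per Ensembl gene. The submitters' processing notes name cutadapt 1.18, STAR 2.5.2a, HTSeq 0.11.0, R 3.5.1, DESeq2 1.20.0 and the build GRCm38. Options and annotation release: not given in the sources used here. HTSeq's tallies of unassigned reads, 31.5% to 84.4% of each file's total, entered neither library sizes nor tests. The 8 value columns of the series' tables were not used.

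Counts were analysed in R 4.3.3 with edgeR 4.0.16 (TMM factors, filterByExpr with a minimum count of 10 and total of 15, quasi-likelihood F test with age as the only term, Benjamini-Hochberg over 16320 genes, threshold 0.05). The scripts were tested on simulated data with less spread between libraries than in these data, which checks the code alone. The SE is the fold change divided by the square root of F. Fold changes are log2, adult over pup. CPM is scaled by TMM, and TPM uses GENCODE exon lengths. Expected background in pup replicate 1 is the olfactory receptor rate, 14.0 counts per kb, times exon length, at one rate on all chromosomes. Floors were 3 counts. Intervals and floors cover counting error only, since the reads carry no molecular identifiers. Alternatives were DESeq2 1.42.0, limma 3.58.1 (voom), other scalings and filters, a replicate block, a looser threshold, background subtraction and leaving out each library. The 4 DESeq2 fits with background subtracted or a library left out were chosen after seeing the data, and none left out pup replicate 2.

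Members and lists were chosen with earlier results of these data known. Full statistics are given for the 2 genes of each role with the highest mean pup TPM and the 3 with the highest adult TPM. In other lists the 2 genes of highest mean CPM are named. Spc24, Incenp, Knl1, Mybl2, Esco2, Fbxo5, Kif1a, Kif5a, Kif5c, Kif17, Krt5 and Krt14 were named after their values were seen. Without strand, reads of overlapping genes cannot be told apart.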

Additional observations from a re-analysis of the deposited data

How the results depend on the processing

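The number of mitotic genes called by edgeR, 0, moved to 13 with no filter beyond 1 count, and to 29 under DESeq2. Calls over all genes, 0, moved to 515 with no filter, 15 with 10 counts required in every library of an age, and 1472 under DESeq2. DESeq2 fits added after seeing the data called 1599 genes and 28 mitotic genes with background subtracted. They called 1069 genes and 20 mitotic genes without pup replicate 1. With adult replicate 1 left out they called 776 genes and 32 mitotic genes, with a median of -4.84, and with adult replicate 2 left out 2004 genes and 34 mitotic genes, with a median of -8.87. With 1 library left out in turn and the filter applied anew, edgeR called 0 to 524 genes and 0 to 10 mitotic genes, and the mitotic median log2 fold change was -8.71 to -3.76. Over the same genes as with all 4 libraries these ranges were 0 to 980, 0 to 26 and -8.76 to -4.03, of which the lone adult replicate 2 gave 390 genes, 13 mitotic genes and a median of -4.85. The limma-voom median was -5.82. The cause was not tested.

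Pttg1 changed sign to 0.00186 with no filter, 0.82 without adult replicate 1 (0.68 over the same genes, 0.70 by DESeq2) and 0.46 without pup replicate 2 (0.19 over the same genes), and stood at -2.30 without adult replicate 2 (-2.36 over the same genes). Background subtraction, from the library total as well, moved the mitotic counts of pup replicate 1 to 1028 CPM. Other scalings moved the median of all genes to -0.31, -0.42 and -0.52, against -0.24 under TMM, with 0 mitotic genes called and all 50 below 0.

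With the replicate block the median was -5.54 and 0 mitotic genes were called. The numbers were not taken to pair libraries, since the correlation of the replicate differences between ages was -0.058 over 16320 genes, with 2 pairs only. The 11 genes at 0 in both adults have no measured fold change, and 38 of the 50 had fewer than 100 adult counts in all, which limits the precision of their fold changes.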

Other observations

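A few genes of mitosis outside the 50 stood higher in adults. Ckap2, a spindle-associated protein, had 1752 and 750 counts in adults, against 149 and 788 counts in pups, with a log2 fold change of 1.71 ± 0.70 (SE) and an edgeR adjusted p of 0.341. Lin37, a subunit of the MuvB complex that also represses cell cycle genes in resting cells, had 300 and 327 counts in adults, against 75 and 112 counts in pups. Its log2 fold change was 1.73 ± 0.80 (SE), with an edgeR adjusted p of 0.407. Lin52, another MuvB subunit, had 226 and 325 counts in adults, against 157 and 283 counts in pups, with a log2 fold change of 0.35 ± 0.69 (SE). The MuvB subunits Lin9 and Lin54 instead stood lower in adults. Their log2 fold changes were -2.82 ± 1.96 (SE) for Lin9 and -1.67 ± 1.68 (SE) for Lin54. Klc4, a kinesin light chain of transport motors, had 1429 and 1116 counts in adults, against 322 and 545 counts in pups, with a log2 fold change of 1.58 ± 0.47 (SE) and an edgeR adjusted p of 0.276. Klc4, Lin9 and Lin54 were named after their values were seen. None of these passed the threshold, by edgeR or by DESeq2.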
